A study of Mus musculus with 12 samples.

Results

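The tripartite motif (TRIM) family was examined by RNA sequencing in N9 microglia, an immortalised mouse line of the macrophages that live in the brain. Its members were taken as all protein-coding genes of the count table whose symbol is Trim followed by digits and an optional letter, which gave 68 of 54532 genes. There were 12 libraries in 4 groups of 3. In the first, cells were kept for 18 h in high-fructose medium (15 mM) and then given lipopolysaccharide (LPS, 1 µg/ml) for 6 h. In the second, the medium was high in glucose (15 mM) and LPS was given in the same way. The third was LPS in control medium, which holds 3 mM glucose and 5 mM fructose, and the last was control medium without LPS. All media were made from glucose-free DMEM with dialyzed serum, and the labels leave unsaid whether 15 mM is the total or comes on top of the control amount. No group had raised sugar without LPS, and all cells were of 1 line. The labels name no separate cultures behind the libraries of a group, so p-values cover library-to-library spread alone, and part of that may be technical.

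TRIM proteins carry a RING finger, B-box domains and a coiled coil, and most of them are E3 ubiquitin ligases, enzymes that attach ubiquitin to other proteins. A part of the family is induced by type I interferon and acts in antiviral defence or tunes innate signalling, while other members work in transcription, cell division, the cytoskeleton and protein turnover in muscle or neurons. In macrophages and microglia, LPS signals through Toll-like receptor 4, whose TRIF branch activates IRF3 and interferon beta, and secreted interferon then drives STAT2 and IRF9, among other factors, to the promoters of interferon-stimulated genes. The members were therefore read in 2 lists, 17 interferon-responsive genes known from the literature and the 51 others. Both lists were set with earlier results of these data known, so the counts per list below describe the data and are no independent test.

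The libraries held 15453776 to 17956772 counts each, and 12766 genes passed the filter on low counts and were tested with edgeR. Of the 68 TRIM genes, 39 were tested, 11 of them on the interferon list and 28 off it. No read was counted in any library for 10 members, namely Trim6, Trim40, Trim42, Trim52, Trim58, Trim60, Trim61, Trim71, Trim75 and Trim80. The remaining 19 had between 0 and 10 counts in each library and were not tested, among them Trim5, Trim12a, Trim30b, Trim38 and Trim69 of the interferon list. Of 10 microglial markers, 8 had at least 10 counts in every library, with Csf1r at 383 to 477 CPM (counts at 1 shared library total). The other two stayed low, Aif1 at 2 to 9 counts and P2ry12 at 1 to 6 counts. The 10 microglial markers summed to 1845 to 1912 CPM with high fructose, 1747 to 1799 CPM with high glucose, 1901 to 1983 CPM with LPS in control medium and 1653 to 1735 CPM without LPS. Traces of 4 fibroblast markers reached 14.3 CPM in 1 high-fructose library, and 4 epithelial markers reached 17.3 CPM in 1 high-glucose library. The 4 neuronal markers, of which Map2 had reads in every library, summed to 14.9 to 20.0 CPM with high fructose, 13.5 to 17.9 CPM with high glucose, 16.3 to 17.9 CPM with LPS in control medium and 21.4 to 23.3 CPM without LPS. The 4 astrocyte markers, led by Aldh1l1, summed to 21.4 to 24.8, 18.8 to 20.5, 21.1 to 24.7 and 27.6 to 29.5 CPM in the same groups and order, and the 4 oligodendrocyte markers, led by Mbp, to 32.6 to 37.5, 29.0 to 31.8, 27.7 to 28.9 and 33.1 to 39.3 CPM. These 3 sums were lower in every LPS library of control medium than in every library without LPS. Each sum largely follows 1 gene, with 214 to 432 counts for Map2, 296 to 534 for Aldh1l1 and 443 to 672 for Mbp. The other markers of these types had at most 21 counts in any library (Slc1a2), among them Rbfox3 at 0 to 6, Gfap at 0 to 10 and Mog at 0 to 1. The sums therefore give no measure of these cell types. The lymphocyte marker Cd3e had no read. The part of these markers in the results was not tested, and in bulk RNA fewer cells of a type and less RNA per cell cannot be told apart.

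Several interferon-list members lie side by side on chromosome 7, and some of them, with Trim21 and Trim26, hold the same short element in their promoters, so these stretches are shown here for reference beside the expression values. Promoters were taken from RefSeq (GRCm38.p6, 250 bases before to 50 after each annotated start), which held 53 of the 68 members. The letters searched were a pair of GAAA half-sites with any 2 bases between them, or of TTTC on the other strand, taken from the interferon-stimulated response element, to which IRF factors bind. At least 1 such pair stood in the promoters of 8 of 16 interferon-list members with a RefSeq promoter (50%), which are Trim5, Trim12a, Trim12c, Trim21, Trim26, Trim30a, Trim30d and Trim34a. It stood in 1 of 37 other members (2.7%), Trim2, and in 3.44% of all 32851 promoters of the same length. A member was counted if any of its promoters held the pair (67 promoters for 53 members), whereas the share over all is per promoter. Some members that hold it are close copies, so they are not independent. Trim5 and Trim12a hold the pair but had 0 to 2 counts in each library, and Trim2 was lower with LPS (log2 change −0.36). Whether the pair bears on the response to LPS was not tested. Stretches are printed only for tested members of the interferon list. Capitals mark the pair, or overlapping pairs, and all stretches read 5′ to 3′ along the gene's own strand.
Trim30a, chr7:104465205-104465244, minus strand: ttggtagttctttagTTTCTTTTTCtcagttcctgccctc
Trim30d, chr7:104507866-104507905, minus strand: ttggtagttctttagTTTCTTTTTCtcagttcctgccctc
Trim12c, chr7:104353354-104353393, minus strand: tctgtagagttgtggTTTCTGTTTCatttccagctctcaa
Trim34a, chr7:104244452-104244491, plus strand: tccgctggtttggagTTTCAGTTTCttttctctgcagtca
Trim21, chr7:102565439-102565484, minus strand: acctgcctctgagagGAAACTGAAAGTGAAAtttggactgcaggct
Trim26, chr17:36836971-36837016, plus strand: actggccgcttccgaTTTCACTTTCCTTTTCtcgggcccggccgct
Relative to the annotated start, the pair began at −36 in Trim30a, −41 in Trim30d, −29 in Trim12c and 10 in Trim34a. In Trim21 the overlapping pairs began at 13 and 19, and in Trim26 at −160 and −154. The stretches of Trim30a and Trim30d were the same over all 40 bases.

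Trim30c, the neighbour of Trim30a, held no such pair in its window. Its most similar 40-base stretch differed from that of Trim30a at 6 bases, of which 1 lay within the pair, T3C counted from 1 at the first capital (Trim30a base first), with the capitals below at the place of the pair.
Trim30c, chr7:104400891-104400930, minus strand: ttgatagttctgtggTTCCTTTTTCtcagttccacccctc
Of the 10 tested interferon-list members with a promoter, 6 held the pair, and Trim25, Trim30c, Trim34b and Trim56 did not. For Trim14 no RefSeq promoter was matched. For NF-kB only 1 exact word was searched, GGGAC followed at once by TTTCC, or its reverse complement. It stood in no member promoter and in 0.155% of all, a share so low that its absence from the members tells little. Other forms of the NF-kB site were not searched.

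Per unit of gene length, 2 members stood above the rest. Trim28, the corepressor recruited by KRAB zinc-finger proteins to silence endogenous retroviruses, averaged 87.3 FPKM (fragments per kilobase of gene at a shared library total) over the 12 libraries. Trim25, the ligase that ubiquitinates the viral RNA sensor RIG-I, averaged 82.0 FPKM. Next came Trim8, which promotes NF-kB signalling, at 39.4 FPKM, and Trim35, a ligase reported to act on IRF7 and on pyruvate kinase, at 37.2 FPKM. Trim30a, which in mouse macrophages restrains Toll-like receptor signalling by removing TAB2 and TAB3, followed at 22.8 FPKM. Trim27, a nuclear ligase, had 18.3 FPKM, Trim59, a membrane-anchored member, had 14.2 FPKM, and Trim32, a ligase of muscle proteins, had 13.4 FPKM. Trim37, which acts on peroxisomes and centrosomes, averaged 13.1 FPKM. At the lower end of the tested members, Trim30d averaged 0.129 FPKM.

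The place of the interferon list within the family changed with the group. With LPS in control medium, 12 members reached a mean of 10 FPKM, 5 of them interferon-listed, whereas without LPS 8 did, of which Trim25 was the 1 interferon-listed gene. Interferon-listed members took 40.2 ± 0.60% of all TRIM counts with high fructose (mean ± SD, n = 3 in each group), 45.0 ± 0.81% with high glucose, 45.7 ± 0.80% with LPS in control medium and 23.3 ± 0.066% without LPS. Their summed level was 160 ± 6.8 FPKM with high fructose, 196 ± 3.8 FPKM with high glucose, 200 ± 4.9 FPKM with LPS in control medium and 69.5 ± 0.85 FPKM without LPS. The 51 others summed to 292 ± 5.6, 289 ± 6.8, 282 ± 4.4 and 297 ± 3.7 FPKM in the same groups and order.

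**Figure D1:**
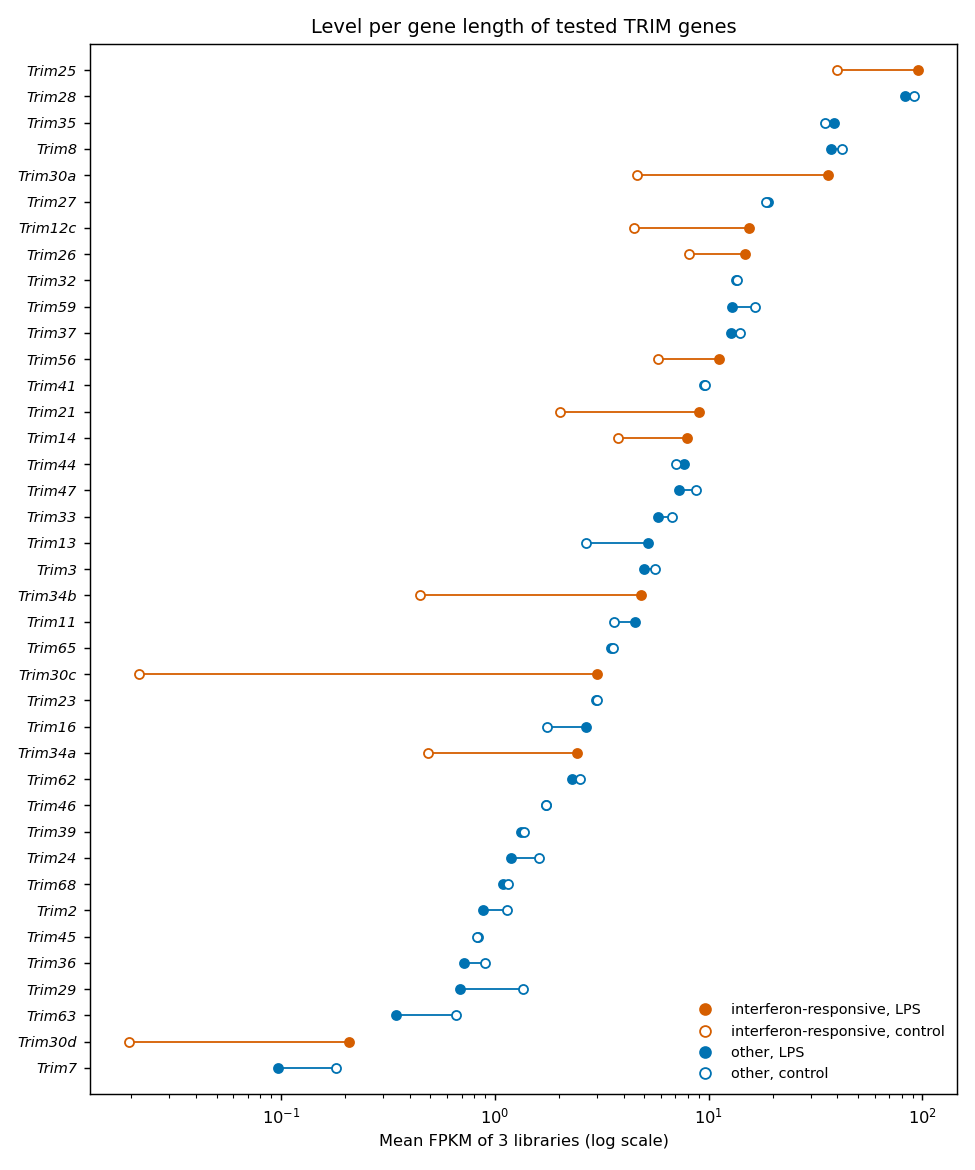
FPKM per tested TRIM gene on a log axis, as means of 3 libraries, with LPS in control medium (filled) and without LPS (open). The raised-sugar groups are not drawn, and genes are ordered by their level under LPS in control medium. Trim25 lies at 95.3 FPKM with LPS in control medium and 39.8 FPKM without LPS, while Trim28 lies at 83.0 and 91.0 FPKM.

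LPS in control medium was first set against control medium without LPS, which asks how the family responds to the inflammatory stimulus. All 11 tested interferon-list members were higher with LPS, by 0.87 to 6.87 on the fitted log2 scale with a median of 2.15. Of the 28 others, 4 were higher, 8 were lower and 16 did not pass the test, with a median of −0.101. Together 23 of 39 members were called at an adjusted p below 0.05, against 28.8% of all genes tested (15.2% higher and 13.6% lower), and the median over all tested genes was −0.004. Trim30c, Trim30d and Trim34a were under the filter's minimum of 0.603 CPM in at least 1 library without LPS, so they could be tested only through the LPS groups.

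Trim30a had 153, 151 and 143 CPM with LPS, against 18.1, 18.6 and 20.6 CPM without LPS. The groups lie far apart and the libraries within each are close. The log2 fold change was 2.96 ± 0.091 (SE), with an adjusted p of 2.78e-14 in edgeR's quasi-likelihood test, as for all adjusted p-values below. Here and in the figures, SE is the size of the log2 value divided by the square root of that test's F statistic. The printed stretch lies in the upstream of its 2 RefSeq promoters. The gene (ENSMUSG00000030921) spans chr7:104409025-104465193 on the minus strand of mm10.

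Trim25 (ENSMUSG00000000275, chr11:88999376-89020293, plus strand) had 550, 562 and 542 CPM with LPS, against 229, 231 and 230 CPM without LPS. Its log2 fold change of 1.26 ± 0.040 (adjusted p = 4.31e-14) was among the smaller ones on the list, although the gene had the highest level of the list in every group. Trim21, a cytosolic antibody receptor that sends antibody-coated virus to the proteasome, had 33.6, 36.6 and 30.6 CPM with LPS, against 7.97, 6.76 and 7.92 CPM without LPS. The 2 groups did not overlap, and the log2 fold change was 2.15 ± 0.10 (adjusted p = 9.37e-12). Trim21 (ENSMUSG00000030966) lies at chr7:102557921-102565486 on the minus strand, and its overlapping pairs of half-sites stand within the first bases after the RefSeq start, as printed above.

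Trim12c, a mouse relative of the primate restriction factor TRIM5, had 59.6, 53.9 and 60.9 CPM with LPS, against 19.2, 14.4 and 17.0 CPM without LPS, and rose by 1.78 ± 0.094 on the log2 scale (adjusted p = 5.6e-11). Trim56, an antiviral ligase linked to the DNA-sensing adaptor STING, had 97.2, 108 and 108 CPM with LPS, against 51.4, 56.8 and 53.9 CPM without LPS. Its rise was 0.95 ± 0.072 on the log2 scale (adjusted p = 8.96e-09). Neither gene overlapped between the groups.

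Trim26, a ligase reported to act on IRF3, had 99.6, 107 and 99.1 CPM with LPS, against 55.1, 55.4 and 56.6 CPM without LPS, and had the smallest rise of the list at 0.87 ± 0.057 (adjusted p = 1.11e-09). Trim14, a member without a RING finger that works as an adaptor of the mitochondrial antiviral protein MAVS, had 31.1, 41.0 and 31.0 CPM with LPS, against 17.3, 15.1 and 16.8 CPM without LPS. LPS library 2 was the highest of its group, and the rise was 1.07 ± 0.11 (adjusted p = 4.17e-07). Of Trim14's exonic length, 38.0% overlaps genes on the other strand, Nans among them, and whether the counting used strand is not stated, so its reads and those of its partners cannot be told apart.

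The chromosome 7 cluster runs from Trim6 to Trim30d (chr7:104218793-104507849) and holds 10 members, of which 6 were tested. All 6 were called higher with LPS, against 15.2% of all genes, but Trim30c, Trim30d and Trim34a among them could be tested only through the LPS groups. Trim34b, a relative of human TRIM34, had 9.31, 8.95 and 8.72 CPM with LPS, against 0.688, 0.838 and 0.957 CPM without LPS, a log2 difference of 3.43 ± 0.23 (adjusted p = 1.49e-09). Its close copy Trim34a had 6.83, 6.15 and 5.91 CPM with LPS, against 2.12, 0.503 and 1.17 CPM without LPS, a log2 difference of 2.32 ± 0.29 (adjusted p = 6.86e-06). The longest Trim34b transcript matched Trim34a over 100% of its length at 98% identity or more, and that of Trim34a matched other genes over 87.2%, so how reads were divided between this pair is uncertain.

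The copies of Trim30a were nearly silent without LPS. Trim30c had 90, 96 and 71 counts with LPS, against 0, 2 and 0 counts without LPS. The depth-corrected ratio of the summed counts, 257 against 2, was 140 with a 95% counting interval of 38.4 to 1160 (exact binomial, counting error only), and the adjusted p was 9.64e-09. Trim30d had 11, 16 and 12 counts with LPS, against 0, 3 and 1 counts without LPS, a ratio of 10.6 (3.84 to 41.0, adjusted p = 0.00188). Trim30b, too low for the test, had 10, 6 and 6 counts with LPS, against 1, 0 and 0 counts without LPS, a ratio of 24.0 (3.88 to 991), and its adjusted p was 0.00627 when no filter was applied. No transcript of Trim30a, Trim30b, Trim30c or Trim30d that was compared, the longest of each, matched another gene at 98% identity over 75 bases.

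**Figure D2:**
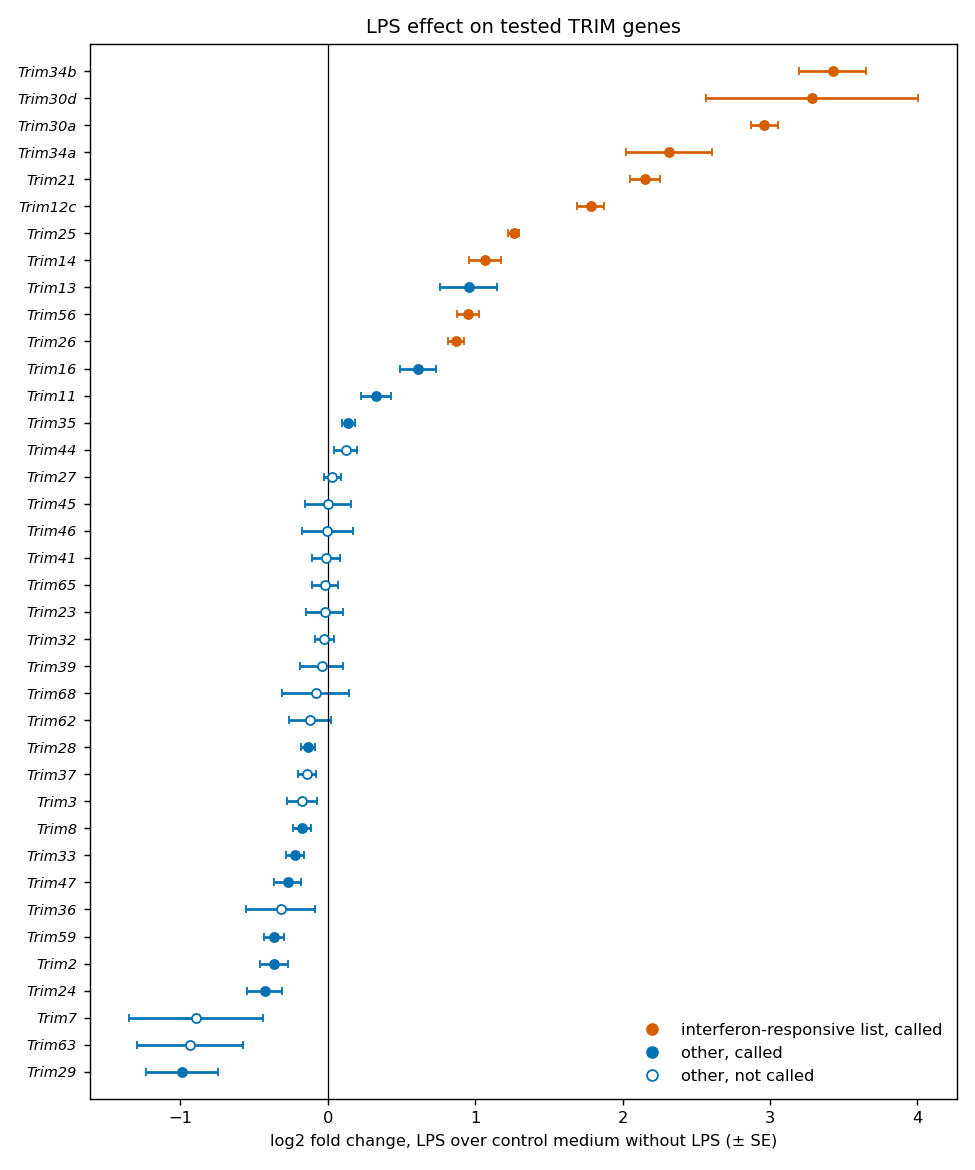
Fitted log2 fold change of LPS over no LPS in control medium for the tested TRIM genes except Trim30c, with SE bars. Points are coloured by list and filled where the adjusted p was below 0.05. Trim30c, at 6.87, is not drawn. The interferon-list genes drawn lie between 0.87 and 3.43, and the members off the list lie between −0.99 and 0.96.

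Among the other members, those that rose with LPS were Trim13, Trim16, Trim11 and Trim35. Trim13, a ligase anchored in the endoplasmic reticulum, had 9.56, 7.70 and 8.6 CPM with LPS, against 4.36, 2.91 and 6.01 CPM without LPS, a log2 change of 0.96 ± 0.20 (adjusted p = 0.00103). Trim16, which has no RING finger and takes part in the autophagy of damaged lysosomes, had 12.2, 11.8 and 12.9 CPM with LPS, against 7.97, 8.55 and 7.60 CPM without LPS, a log2 change of 0.61 ± 0.12 (adjusted p = 0.00088). Both genes were separated between the groups in every library. Trim11, a ligase, had 15.0, 15.8 and 18.0 CPM with LPS, against 12.6, 12.2 and 14 CPM without LPS, a log2 change of 0.33 ± 0.10 (adjusted p = 0.0227). Trim35 had 183, 177 and 179 CPM with LPS, against 169, 162 and 157 CPM without LPS, a log2 change of 0.14 ± 0.044 (adjusted p = 0.0222). The calls of Trim11 and Trim35 were lost with upper-quartile factors (adjusted p of 0.0504 and 0.139) and with library totals alone (0.0864 and 0.407).

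The others that fell with LPS were Trim29, Trim24, Trim2, Trim59, Trim47, Trim33, Trim8 and Trim28. Trim29, a member without a RING finger that in airway macrophages dampens innate responses, had 2.30, 2.33 and 2.57 CPM with LPS, against 4.82, 3.91 and 5.53 CPM without LPS, and changed by −0.99 ± 0.24 on the log2 scale (adjusted p = 0.00486). Trim59 had 43.7, 42.6 and 43.6 CPM with LPS, against 55.8, 55.3 and 55.9 CPM without LPS, a log2 change of −0.36 ± 0.069 (adjusted p = 0.000548). For Trim59 the SD within a group was 0.60 CPM with LPS and 0.31 CPM without LPS, and the groups were wholly apart.

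Trim24, like Trim33 a chromatin-binding corepressor related to Trim28, had 10.1, 10.03 and 10.6 CPM with LPS, against 12.2, 14.5 and 14.6 CPM without LPS, a log2 change of −0.43 ± 0.12 (adjusted p = 0.0101). Trim33 changed by −0.22 ± 0.062 (adjusted p = 0.012) and Trim28 by −0.13 ± 0.046 (adjusted p = 0.036), which for Trim28 meant 347, 342 and 351 CPM with LPS, against 376, 369 and 397 CPM without LPS. Trim2, a ligase of neurofilament light chain in neurons, had 16.7, 17.4 and 18.6 CPM with LPS, against 21.4, 23.1 and 23.2 CPM without LPS. It changed by −0.36 ± 0.094 (adjusted p = 0.0064), Trim47, a ligase, by −0.27 ± 0.091 (adjusted p = 0.0338) and Trim8 by −0.17 ± 0.059 (adjusted p = 0.0352).

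The small changes depended on single libraries or on the fit. Without a filter on low counts, Trim28 (adjusted p = 0.0787), Trim47 (0.0593) and Trim35 (0.0846) lost their calls, and Trim2 lost its call with limma on log2(FPKM + 0.1) (0.0587). Trim28 also lost its call without control library 3 (adjusted p = 0.16) or without LPS library 1, 2 or 3 (0.0813, 0.118 and 0.0687). Trim33 lost it without control library 2 (0.0621) or LPS library 1 (0.061), and Trim47 without control library 1 or 3 (0.0775 and 0.136) or LPS library 2 (0.171). Trim8 lost it without any 1 of the 3 control libraries (0.093, 0.0785 and 0.0509) or without LPS library 1 or 3 (0.141 for both). Among the rises, Trim11 lost its call without control library 1 or 2 (0.0733 and 0.0929) or LPS library 3 (0.128), and Trim35 without control library 2 or 3 (0.0724 and 0.129) or LPS library 1 or 3 (0.0822 and 0.0503). Trim13, Trim16, Trim24, Trim29 and Trim59 kept their calls in every alternative computed, and so did all 11 interferon-list members.

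Well-expressed members that did not pass the test with LPS include Trim27 at 105 ± 5.5 CPM with LPS and 102 ± 2.8 CPM without LPS (SD, n = 3 each), with a log2 difference of 0.03 ± 0.058 (adjusted p = 0.743). Trim32 had 43.3 ± 0.69 CPM with LPS and 44.0 ± 2.6 CPM without LPS, with a difference of −0.02 ± 0.065 (adjusted p = 0.837). Trim37 had 92.3 ± 3.4 CPM with LPS and 102 ± 1.5 CPM without LPS, with a difference of −0.14 ± 0.063 (adjusted p = 0.11). It was, however, called with upper-quartile factors, with library totals alone and in a fit of only the groups compared. Among the muscle-restricted MuRF members, Trim63, the ligase of muscle atrophy, had 9, 25 and 15 counts with LPS, against 37, 32 and 33 counts without LPS (log2 difference −0.93 ± 0.36, adjusted p = 0.0606). Trim63 was called with upper-quartile factors, with library totals alone, with both limma fits and without LPS library 2. Trim54 and Trim55 had no more than 4 counts in any library, and of 4 muscle markers Myod1 and Myog had no read, Acta1 had 0 to 27 counts and Ckm 0 to 11 counts.

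In the induction pathway itself, 15 of 16 listed genes were tested, of which 10 were higher with LPS and 1 was lower, with a median of 0.447. Over all genes tested, 15.2% were higher and 13.6% lower. Irf7, the factor that amplifies interferon production, rose by 3.96 ± 0.084, Stat2 by 2.24 ± 0.093 and Irf9 by 2.07 ± 0.069 on the log2 scale (adjusted p of 1.83e-16, 2.1e-12 and 8.62e-14). Tlr4, the LPS receptor, fell by 0.53 on the log2 scale (adjusted p = 1.58e-06). Ifnb1, the gene of interferon beta, had at most 3 counts in any library, summing to 0 with high fructose, 6 with high glucose, 2 with LPS in control medium and 0 without LPS, and was not tested. Of 5 TRIM relatives that lack the symbol, 2 were tested, and Pml, the organiser of nuclear bodies, was higher (1.49 ± 0.094, adjusted p = 7.06e-10), while Mid1 was not called.

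High fructose under LPS was then set against LPS in control medium, to ask whether the sugar alters the family once LPS is present. In total 9 of 39 members were called, against 4.91% of all genes tested. Of the 11 interferon-list members, 8 were lower, against 2.55% of all genes, and 3 did not pass the test. The values ran from −2.01 to −0.07 with a median of −0.562, while the median over all genes was −0.001. The −2.01 is that of Trim30d, which was under the filter's minimum in all 3 high-fructose libraries and could be tested only through the groups where it is higher. Over the other 10 the median was −0.54 and the lowest value −1.03. Of the 28 others 1 was higher, against 2.37% of all genes, and the median was 0.051.

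**Figure D3:**
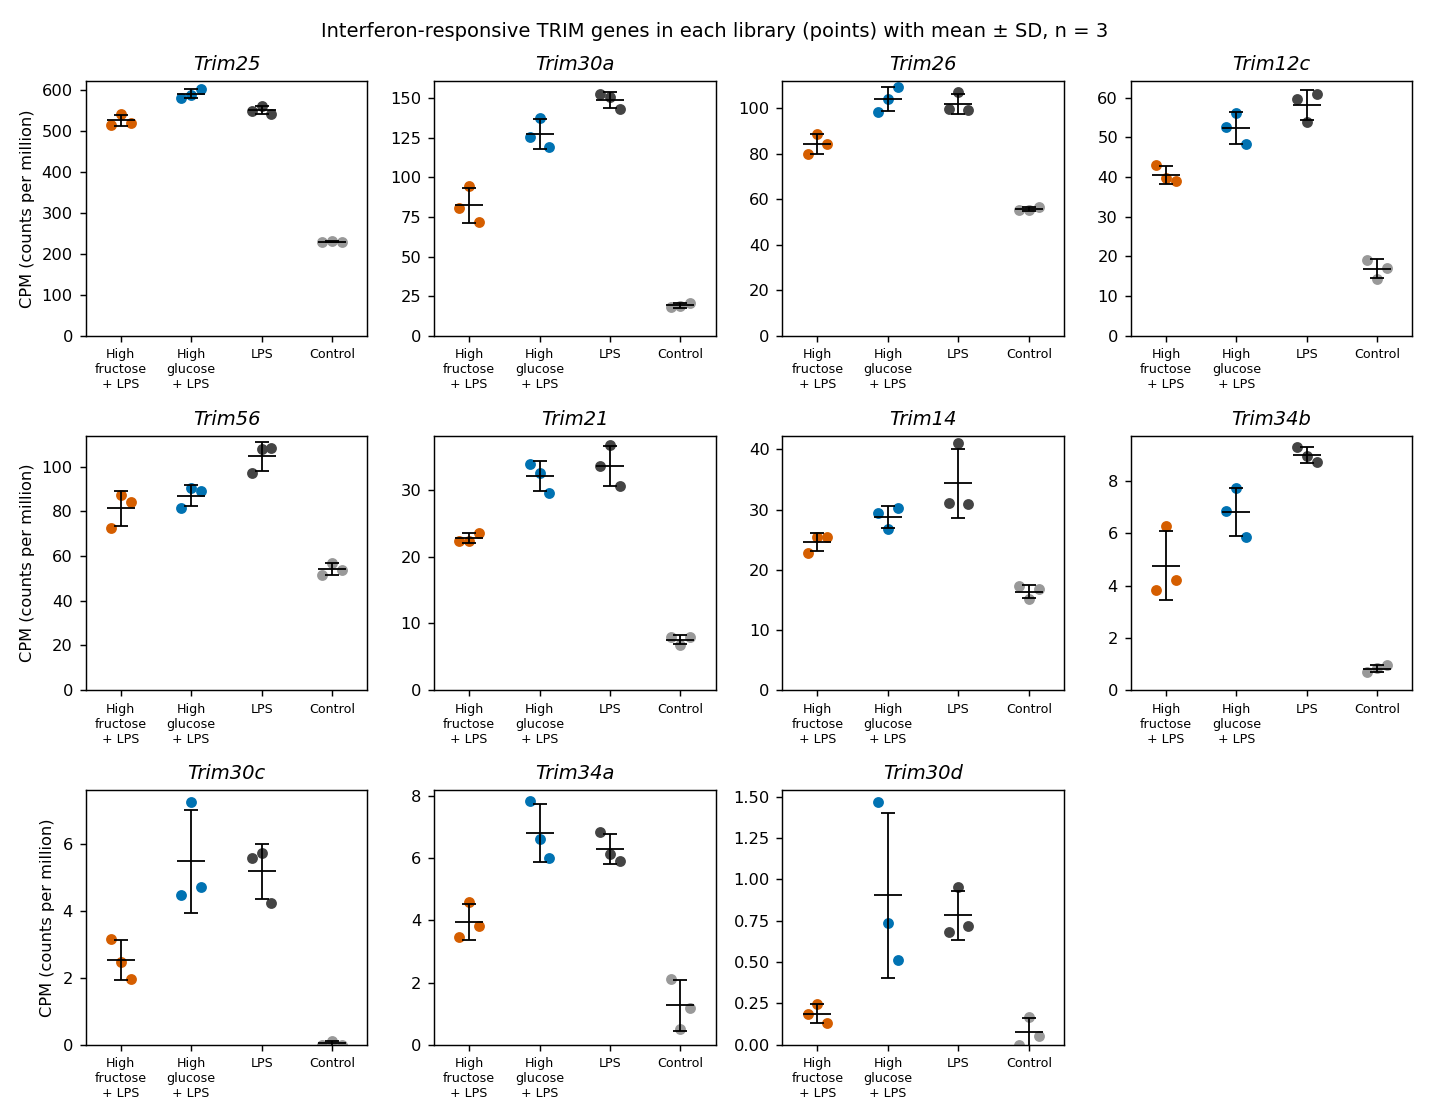
CPM of the interferon-list TRIM genes in each library, with the mean and SD of 3 libraries per group, 1 panel per gene and an axis from 0. Trim30a has 72.1 to 94.3 CPM with high fructose, 119 to 138 CPM with high glucose, 143 to 153 CPM with LPS in control medium and 18.1 to 20.6 CPM without LPS.

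Trim30a had 80.5, 94.3 and 72.1 CPM in the high-fructose libraries, against 153, 151 and 143 CPM with LPS in control medium. Every high-fructose library was well below every library of control medium, and the log2 change was −0.86 ± 0.080 (adjusted p = 2.24e-06). Trim21 had 22.3, 22.3 and 23.6 CPM with high fructose, against 33.6, 36.6 and 30.6 CPM in control medium, a change of −0.56 ± 0.090 (adjusted p = 0.000679). Trim12c had 43.1, 39.6 and 39.0 CPM with high fructose, against 59.6, 53.9 and 60.9 CPM in control medium, a change of −0.52 ± 0.087 (adjusted p = 0.00115). These members stayed above their levels without LPS, which were 7.55 ± 0.68 CPM for Trim21 and 16.9 ± 2.4 CPM for Trim12c (SD, n = 3).

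Trim34b had 3.82, 6.26 and 4.21 CPM with high fructose, against 9.31, 8.95 and 8.72 CPM in control medium, a change of −0.91 ± 0.18 (adjusted p = 0.00431). Library 2 was the highest of the high-fructose group and still below control medium. Its copy Trim34a had 3.45, 4.59 and 3.81 CPM with high fructose, against 6.83, 6.15 and 5.91 CPM, and its change of −0.67 ± 0.26 did not pass the test (adjusted p = 0.178), though it passed without a filter on low counts (0.0309). Trim30c had 51, 40 and 30 counts with high fructose, against 90, 96 and 71 counts in control medium, a ratio of 0.491 (0.392 to 0.612, counting error only) with an adjusted p of 0.0348. That call was lost without LPS library 1 or 2 (0.129 and 0.143) and without high-fructose library 2 or 3 (0.0881 and 0.143). Trim30d had 3, 4 and 2 counts with high fructose, against 11, 16 and 12 counts, and was not called (adjusted p = 0.0845).

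Trim14 had 22.8, 25.4 and 25.5 CPM with high fructose, against 31.1, 41.0 and 31.0 CPM in control medium, a change of −0.49 ± 0.11 (adjusted p = 0.00857) that was lost without LPS library 2 (−0.34, adjusted p = 0.0614). Trim56 had 72.4, 87.3 and 84.2 CPM with high fructose, against 97.2, 108 and 108 CPM, a change of −0.36 ± 0.070 (adjusted p = 0.00376). Trim26 had 79.7, 88.7 and 84.2 CPM with high fructose, against 99.6, 107 and 99.1 CPM, a change of −0.28 ± 0.056 (adjusted p = 0.00509). None of these genes overlapped between the groups.

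Trim25 differed from the list in size. It had 515, 542 and 521 CPM with high fructose, against 550, 562 and 542 CPM in control medium, groups that overlap, and its change of −0.07 ± 0.039 did not pass the test (adjusted p = 0.461). In log2 units the LPS rise was 1.26 in Trim25 and 2.96 in Trim30a, so the gene with the highest level on the list had one of the smaller responses to LPS and the smallest value with high fructose. Both comparisons use the same LPS libraries of control medium, with opposite sign, so spread in those libraries moves the 2 values of a gene in opposite directions. Whether the fructose values of 2 genes differ from each other was not tested.

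Trim47 (ENSMUSG00000020773, chr11:116105752-116127210, minus strand) was the 1 member that rose. It had 29.7, 25.7 and 27.2 CPM with high fructose, against 20.8, 17.8 and 21.2 CPM with LPS in control medium, and the groups did not overlap (0.46 ± 0.091 on the log2 scale, adjusted p = 0.00432). Without LPS it had 24.4, 22.2 and 25.6 CPM. Of its exonic length, 8.23% is shared with its neighbour Trim65 on the same strand. Trim65 had no call in any comparison. Among members that did not pass, Trim3, a neuronal ligase of the NHL group, differed by 0.30 ± 0.10 (adjusted p = 0.108).

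The pathway genes gave 5 called with high fructose, all lower, of 15 tested, against 2.55% lower over all genes. Irf7 had 73.7 ± 5.4 CPM with high fructose and 141 ± 7.5 CPM in control medium (SD, n = 3 each), a log2 change of −0.93 ± 0.067 (adjusted p = 1.56e-07). Stat2 changed by −0.69 ± 0.085 (adjusted p = 4.63e-05), Ikbke by −0.27 ± 0.068 (adjusted p = 0.0274) and Irf9 by −0.25 ± 0.062 (adjusted p = 0.02). Pml also fell (−0.58 ± 0.090, adjusted p = 0.000532). Tlr4, Ticam1, Traf3, Tbk1, Irf3 and the interferon receptor genes were not called.

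High glucose under LPS was compared with the same LPS libraries of control medium, which the high-fructose comparison also uses. No member was called, 0 of 39 in edgeR against 1.56% of all genes (0.587% higher and 0.971% lower). An unadjusted p below 0.05 was found for 13 of the 39 members, against 1780 of all 12766 genes. DESeq2 called 1 member, Trim56 (adjusted p = 0.0208), among 329 calls over all genes, where edgeR made 199. The interferon list had a median of −0.068 with 5 positive and 6 negative values, and the others had a median of 0.023.

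Trim30a had 126, 138 and 119 CPM with high glucose, against 153, 151 and 143 CPM in control medium. These groups do not overlap, but the difference of −0.23 ± 0.078 did not pass the test (adjusted p = 0.19). It passed when no filter on low counts was applied (0.019). Trim56 had 81.6, 90.4 and 89.1 CPM with high glucose, against 97.2, 108 and 108 CPM, a difference of −0.27 ± 0.070 (adjusted p = 0.0754), which also passed without a filter (0.00396) and without high-fructose library 1 (0.0372). Trim25 had 582, 589 and 603 CPM with high glucose, against 550, 562 and 542 CPM, a difference of 0.10 ± 0.039 (adjusted p = 0.244). Trim34b (−0.40 ± 0.17, adjusted p = 0.312) and Trim14 (−0.26 ± 0.10, adjusted p = 0.271) were likewise not called. Among the others, Trim16 had 9.17, 8.47 and 10.4 CPM with high glucose, against 12.2, 11.8 and 12.9 CPM, a difference of −0.40 ± 0.12 (adjusted p = 0.137). In the pathway list, 2 of 15 tested genes were lower, against 0.971% of all genes. They were Ikbke (−0.39 ± 0.069, adjusted p = 0.0068) and Tyk2 (−0.32 ± 0.065, adjusted p = 0.0168), while Irf7 and Stat2 were not called.

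**Figure D4:**
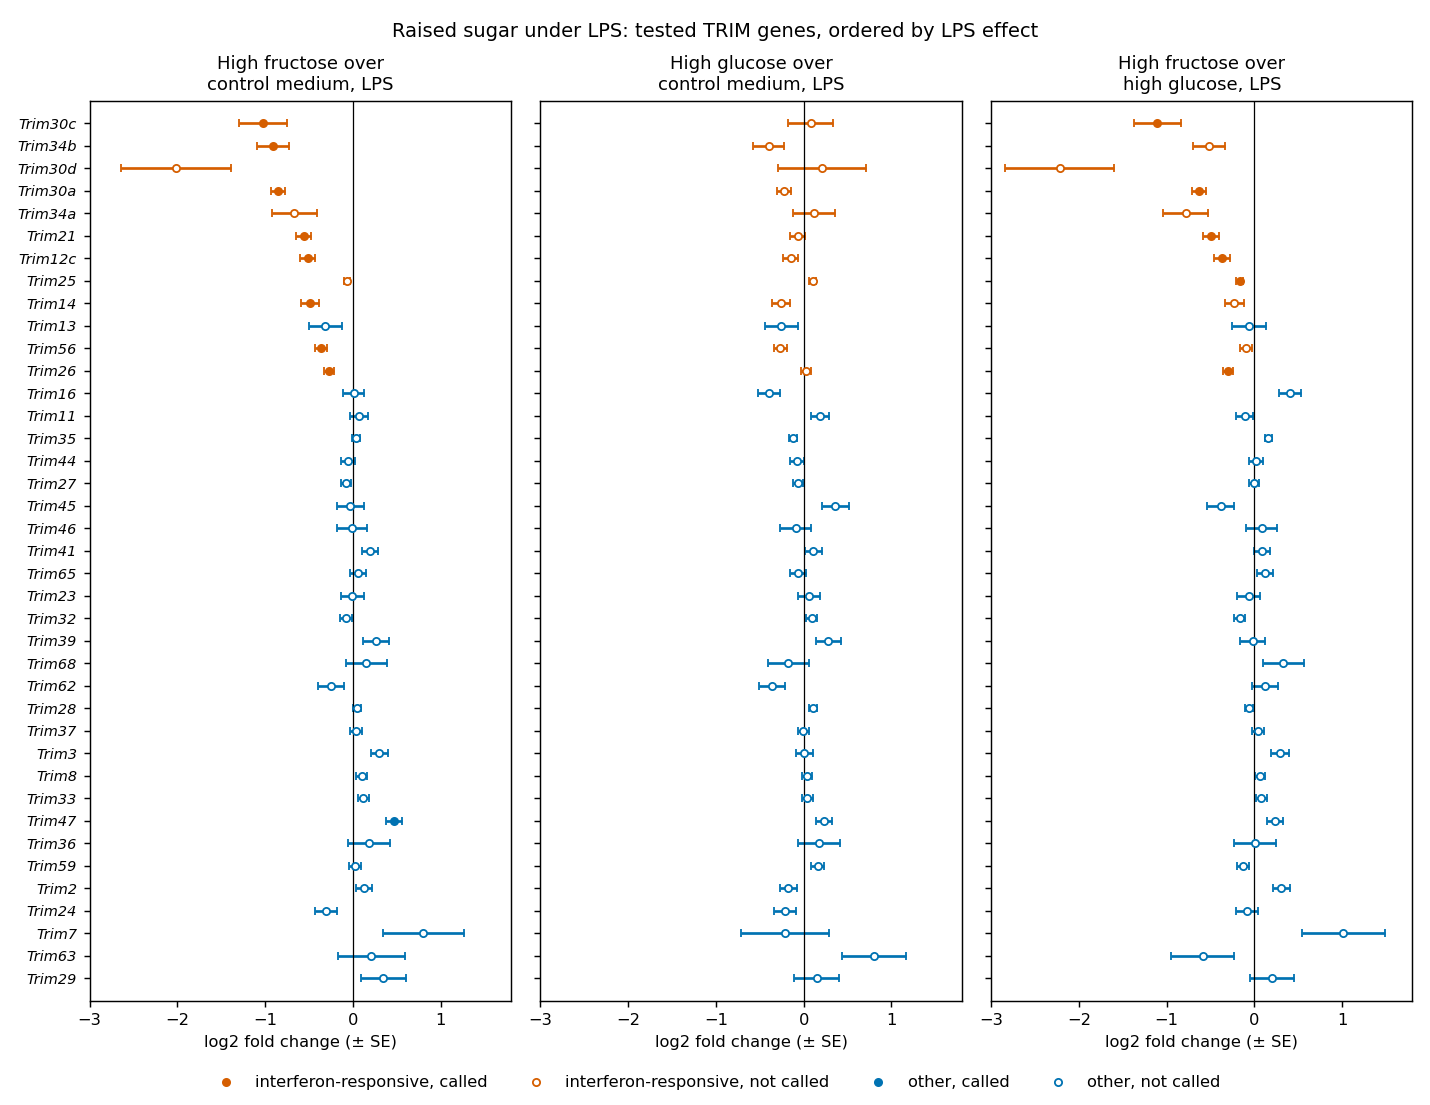
Fitted log2 fold changes with SE bars for the 39 tested TRIM genes, ordered by their LPS effect, for high fructose over control medium, high glucose over control medium and high fructose over high glucose, all with LPS. Filled points passed an adjusted p of 0.05, which were 9, 0 and 6 genes in the 3 panels. The LPS effect that sets the order shares its LPS libraries with both panels drawn over control medium.

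The direct comparison of high fructose with high glucose, both under LPS, tested the difference between the 2 media. They differ in glucose as well as in fructose, so the parts of the 2 sugars cannot be told apart. There were 6 of 39 members called, against 3.72% of all genes, and all 6 were lower with high fructose (1.88% of all genes, with 1.84% higher) and on the interferon list. The median of the list was −0.494, or −0.431 without Trim30d, which is again under the filter's minimum with high fructose. None of the 28 others was called, with a median of 0.051. An unadjusted p below 0.05 was found for 8 of these 28, against 1995 of all 12766 genes. Trim35 (0.16 ± 0.044, adjusted p = 0.0574) was, however, called higher with DESeq2 (0.0228) and with limma on log2(FPKM + 0.1) and log2(FPKM + 1) (0.0366 and 0.0344).

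Trim30a had 80.5, 94.3 and 72.1 CPM with high fructose, against 126, 138 and 119 CPM with high glucose, a log2 change of −0.63 ± 0.080 (adjusted p = 0.000113). Trim21 had 22.3, 22.3 and 23.6 CPM with high fructose, against 33.9, 32.6 and 29.6 CPM with high glucose, a change of −0.49 ± 0.090 (adjusted p = 0.00363). Trim26 had 79.7, 88.7 and 84.2 CPM with high fructose, against 98.5, 104 and 109 CPM, a change of −0.30 ± 0.056 (adjusted p = 0.00388). In all 3 genes every high-fructose library was below every high-glucose library, and these 3 calls held in every alternative computed.

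The other calls were less firm. Trim12c changed by −0.37 ± 0.088 (adjusted p = 0.0239), a call lost without high-glucose library 1 or 2 (0.0645 and 0.107) or high-fructose library 2 or 3 (0.0793 and 0.093), and with limma on log2(FPKM + 0.1) and log2(FPKM + 1) (0.0733 and 0.0578). Trim30c had 51, 40 and 30 counts with high fructose, against 73, 118 and 74 counts with high glucose, a ratio of 0.464 (0.371 to 0.578, counting error only) with an adjusted p of 0.0282. Without high-glucose library 2 or high-fructose library 2 or 3 that p was 0.147, 0.0818 and 0.112. Trim25 had 515, 542 and 521 CPM with high fructose, against 582, 589 and 603 CPM with high glucose, a change of −0.17 ± 0.039 (adjusted p = 0.0198). This call was lost without high-glucose library 3 (0.0778) or high-fructose library 1 or 3 (0.0737 and 0.0734), and in a fit of only the 2 groups (0.138).

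Of the members that did not pass, Trim34a had 3.45, 4.59 and 3.81 CPM with high fructose, against 7.83, 6.63 and 5.99 CPM with high glucose, a difference of −0.79 ± 0.25 (adjusted p = 0.108). It passed without control library 1 or 2 (0.0376 and 0.0341), with DESeq2 (0.0311) and without a filter (0.00653). Trim34b differed by −0.52 ± 0.18 (adjusted p = 0.154) and passed without high-fructose library 2 (−0.76, adjusted p = 0.029). Trim30d had 3, 4 and 2 counts with high fructose, against 24, 12 and 8 counts with high glucose, and was not called (adjusted p = 0.0581). Trim14 (−0.23 ± 0.11, adjusted p = 0.301) and Trim56 (−0.10 ± 0.071, adjusted p = 0.565) did not pass either. For Trim56 both sugars gave lower means than control medium, 81.3 ± 7.9 CPM with high fructose, 87.0 ± 4.7 CPM with high glucose and 105 ± 6.4 CPM in control medium (SD, n = 3 each). In the pathway list Irf7 (−0.78 ± 0.067, adjusted p = 2.51e-06) and Stat2 (−0.56 ± 0.085, adjusted p = 0.000732) were lower with high fructose and Tyk2 was higher (0.30 ± 0.065, adjusted p = 0.0111). Pml was lower as well (−0.49 ± 0.090, adjusted p = 0.00381).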

How the data were processed

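Raw counts of reads per gene and an FPKM table were deposited by the authors. Per the submitters' processing notes, featureCounts 1.5.0-p3 and mm10 were used. For the aligner, annotation release and strand setting nothing is given in the sources used here. Each deposited FPKM value equals the count over gene length and 1 constant per library (largest deviation 1.75e-07% at 200 counts or more). FPKM was used for levels between genes and CPM, scaled by TMM, for levels between libraries.

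Counts were tested with edgeR 4.0.16 (R 4.3.3) in 1 quasi-likelihood model of 12 libraries, after filterByExpr with its default minimum of 10 counts, with 4 contrasts and Benjamini-Hochberg adjustment over 12766 genes. Alternatives used DESeq2 1.42.0 and limma 3.58.1. The fits were tested on simulated data. Libraries of a group differed beyond counting error (lowest chi-square 3.54 per degree of freedom). Shared transcript sequence was measured with BLAST 2.17.0+ (98% identity, 75 bases) on GENCODE M21.

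The members and lists were chosen with earlier results of these data known. Named genes were all tested interferon-list members, every other called member, the 6 other members with the highest mean FPKM, and the pathway list. Trim3, Trim37, Trim54, Trim55 and Trim63 were added with their values known. Some results are not reported here.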

Additional observations from a re-analysis of the deposited data

How the results depend on the processing

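Of 77 gene and comparison results, 1614 alternative values were computed, of which 1537 kept direction and side of the threshold, 47 lost a call, 15 gained one and 15 turned direction. Trim37 and Trim63 were not among the 77, so the calls they gained are not in these counts. Other TRIM genes higher with LPS numbered 4, but 2 with upper-quartile factors, 2 with library totals alone and 2 to 4 without 1 library. The lower ones numbered 8, and 5 to 8 without 1 library. With upper-quartile factors and with library totals alone the lower ones numbered 10, Trim37 and Trim63 being added. Those scalings moved the median of all genes to −0.052 and −0.094 and the median of the others to −0.149 and −0.191, and split all LPS calls 1622 higher and 2292 lower, or 1412 and 2951, against 1941 and 1736. Members called with high glucose numbered 0, but 1 with DESeq2, 2 without a filter (Trim30a and Trim56) and 0 to 1 without 1 library. Over all genes the same comparison gave 199 calls in the main fit, 329 with DESeq2 and 427 without a filter. High fructose against high glucose gave 6 members, and 3 to 7 without 1 library.

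Whether libraries that share a replicate number belong together was not settled. Their correlations lay between −0.194 and 0.243, with 4 of 18 above 0.1. Of the 12 libraries, 6 correlated best with their own number, all those of high glucose among them. A block for number gave more calls over all genes in every comparison. These were 4149 for LPS (3677 without the block), 391 for high glucose (199), 847 for high fructose (627) and 735 between the sugars (475). With number as a block, 1 member was called with high glucose, Trim56 (adjusted p = 0.00345), and Trim35 was called higher with high fructose than with high glucose (0.0269), which the fit without the block did not call.

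Every reversal was of a value that was not called. With LPS, Trim27 was −0.0166 with upper-quartile factors and −0.0584 with library totals alone. Without 1 library, the log2 values ran from −0.0017 to 0.072 for Trim27 and from −0.063 to 0.019 for Trim32 with LPS. With high glucose they ran from −0.0069 to 0.099 for Trim8, −0.010 to 0.063 for Trim26, −0.176 to 0.207 for Trim30c and −0.328 to 0.486 for Trim30d. With high fructose they ran from −0.037 to 0.054 for Trim59, and for high fructose against high glucose from −0.0044 to 0.105 for Trim8 and −0.063 to 0.026 for Trim27. The cause was not tested. Members under 10 counts are limited by depth.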
